A study of Mus musculus with 16 samples.

Results

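The profile described here is that of mouse hepatocytes cultured alone, which make up 3 of the 16 RNA sequencing libraries of the series. They were chosen by their labels, which call them hepatocytes only and number them replicates 1 to 3. The other 13 libraries are hepatocytes that shared a culture with cancer cells, with or without an inhibitor of the chemokine receptor CXCR2, and no value from them is used or compared here. The series concerns the enzyme Phgdh in the cancer cells and the exchange between cancer cells and hepatocytes. The labels give the material as mouse hepatocytes under the tag for cell lines and state no treatment for these 3 libraries. They give no strain, sex, age, passage number, medium or time in culture, and nothing says whether the replicates were separate cultures, so the SD between them may be technical. The design text of the series names the cancer cell line HY19636 as the sequenced material, which conflicts with the labels. The labels were followed, and marker genes are given below so that the material can be judged from its transcripts.

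Hepatocytes are the parenchymal cells of the liver. In the organ they rest outside the cell cycle, secrete most plasma proteins, make bile acids, detoxify drugs with cytochrome P450 enzymes, turn ammonia into urea, and release glucose made from lactate and amino acids. A network of transcription factors, with HNF4A, FOXA and C/EBP proteins at its centre, holds these genes active. Hepatocytes kept on plastic are known to lose many adult functions over days, and established hepatocyte lines often keep the factors while the enzymes fade. The levels below are ordered from identity through differentiation and proliferation to metabolism.

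Levels are FPKM as deposited by the authors, a unit that divides the fragments of a gene by its length in kilobases and by the size of the library. A value of 1 FPKM was used as the mark for a clearly detected gene, and the mean ± SD of the 3 libraries is given throughout (n = 3). The deposited values fell on whole multiples of 1 fragment, and 17505598, 16395464 and 21024508 fragments were recovered from replicates 1, 2 and 3. One fragment in a gene of 1 kb was worth 0.0586, 0.0627 and 0.0489 FPKM. For a gene with no fragment, the upper limit given is what 3 fragments over the 3 libraries together would be worth. This covers counting error only, since duplicate reads cannot be told from separate molecules. Across the 10050 protein-coding genes at 1 FPKM or more, the libraries correlated at r of 0.995, 0.996 and 0.996 on the log2(FPKM + 1) scale, a correlation across genes, which are not independent replicates. Their median coefficient of variation (CV, the SD divided by the mean) was 5.25%, where counting alone gives 3.58%. With 1 group of 3 libraries there is no contrast to test, so no p-value is given, and every statement below is about levels.

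Of 22046 protein-coding genes in the table, 10050 (45.6%) reached 1 FPKM, and 7534 (34.2%) had no fragment in any of the 3 libraries. The median over all protein-coding genes was 0.343 FPKM. Only 420 genes reached 100 FPKM and 21 reached 1000 FPKM, yet the 399 genes from 100 to under 1000 FPKM held 28.3% of the summed FPKM of all genes and the 21 above them 16.9%. The 50 highest genes of any kind, short noncoding entries included, held 27.0% ± 0.0959 of the summed FPKM and 12.2% ± 0.0753 of fragments. The 85 cytosolic ribosomal protein genes held 9.43% ± 0.132, and the 13 protein genes of the mitochondrial genome 8.23% ± 0.533.

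Among nuclear protein-coding genes the translation factor Eef1a1 was highest, at 7706, 7657 and 7710.2 FPKM. Of the 30 highest, 11 encode proteins of the ribosome or their fusions (Rplp1, Rplp0, Rpl4, Rps3a1, Rpl32, Fau, Rpl19, Rpsa, Rpl8, Rps15 and Rps4x), led by Rplp1 at 3264 ± 279.6 FPKM. Eef2, the elongation factor that moves the ribosome along, was at 1692 ± 28.8 FPKM, and Tpt1, which encodes a translationally controlled growth protein, at 2005 ± 26.03 FPKM. The iron storage subunits Fth1 and Ftl1 stood at 2843 ± 37.1 and 1244 ± 152 FPKM. These are genes that most growing cells carry at high levels. The 30 also held genes with narrower roles. Clu, which encodes the secreted chaperone clusterin, was at 2791, 2814 and 2822 FPKM. Spp1, which encodes the secreted phosphoprotein osteopontin, was at 1017, 1009.6 and 1019.6 FPKM, and Ccl2, a monocyte-attracting chemokine, at 868, 873 and 892 FPKM. Krt18 and Krt8, the keratin pair of simple epithelia, were at 1095 ± 6.77 and 855 ± 2.56 FPKM. Igfbp7, a secreted binding protein, was at 912 ± 51.96 FPKM, and the calcium-binding S100a6 and S100a11 at 947 ± 44.7 and 937 ± 17.5 FPKM. The others were the chaperone Hsp90ab1 (1188 ± 22.4), the actins Actb (1125 ± 28.2) and Actg1 (858 ± 7.56), the class I light chain B2m (984 ± 29.96), prothymosin Ptma (881 ± 27.1) and cofilin Cfl1 (729.6 ± 5.25). No member of the plasma protein list, which does not hold Clu, was among the 30.

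**Figure D1:**
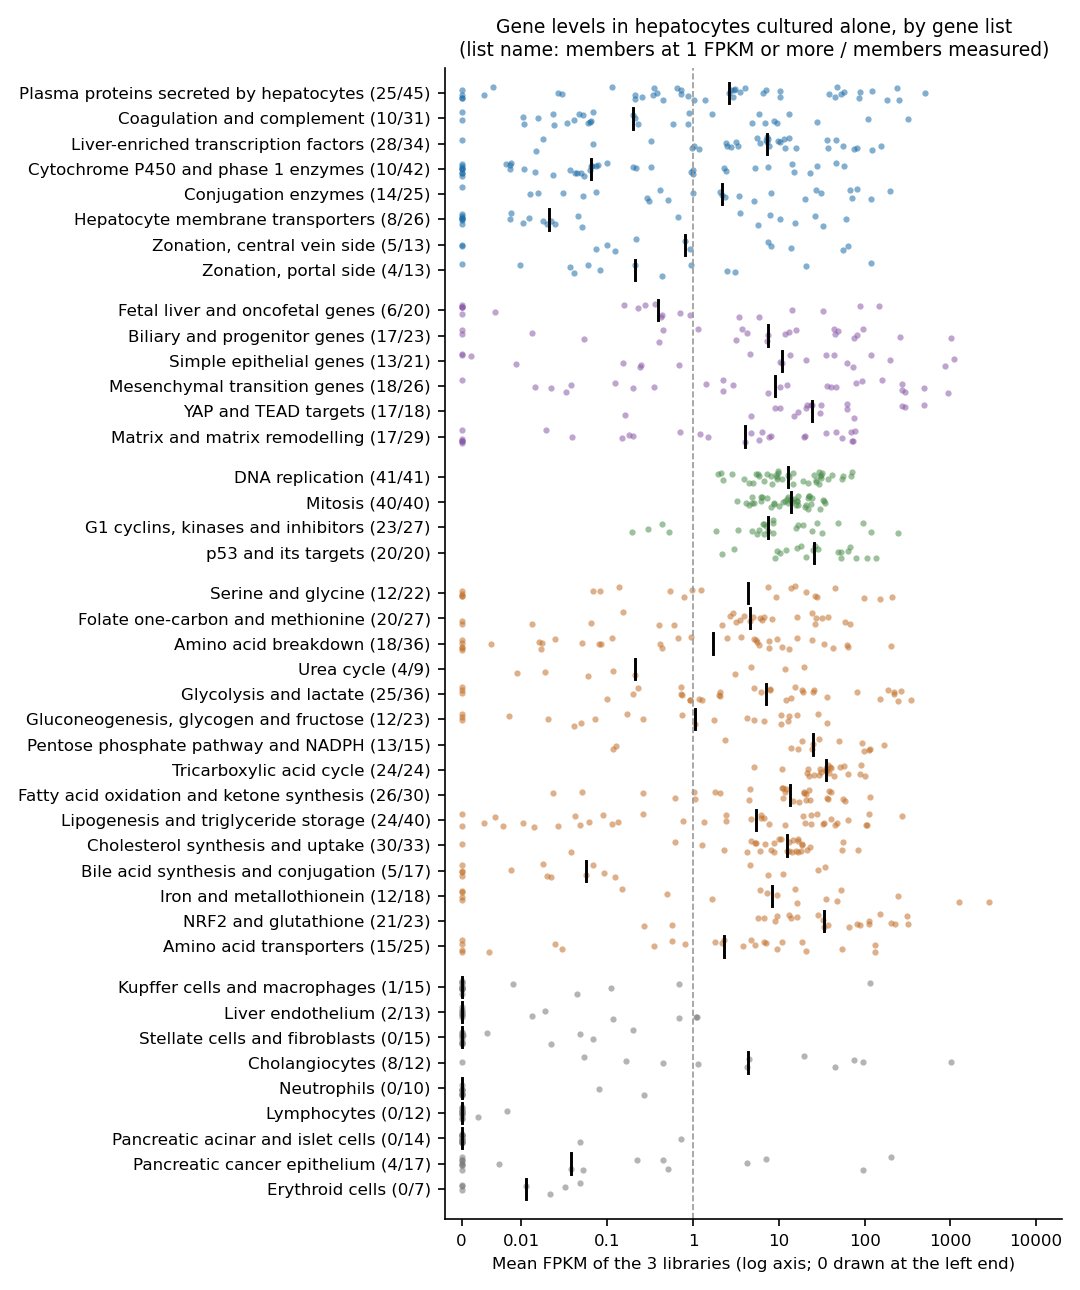
Levels of the members of the identity, differentiation, proliferation, metabolism and cell type lists in hepatocytes cultured alone. Each point is 1 gene at its mean FPKM over the 3 libraries on a log axis (0 is drawn at the left end), black bars are list medians, the dashed line is 1 FPKM, and colours separate the 5 kinds of list from identity (top) to other cell types (bottom). The DNA replication, mitosis and tricarboxylic acid cycle lists lie wholly above 1 FPKM, while P450 enzymes, membrane transporters, bile acid genes and most cell type lists lie mainly below it.

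Hepatocyte identity was mixed, with transcription factors and a part of the plasma proteins present and most adult enzymes and transporters near 0. Of 225 distinct genes in the 8 identity lists, 104 (46.2%) reached 1 FPKM, close to the 45.6% of all protein-coding genes, and their median was 0.883 FPKM. The lists differed widely. The share at 1 FPKM or more was 28 of 34 for liver-enriched transcription factors and 25 of 45 for plasma proteins, but 8 of 26 for membrane transporters and 10 of 42 for P450 and other phase 1 enzymes.

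Plasma proteins spanned a range from no fragment to 499 FPKM, with a median of 2.59 FPKM. Gc, which encodes the vitamin D binding protein, was highest at 492, 505 and 501 FPKM. Ambp, the precursor of alpha-1-microglobulin and bikunin, was at 267, 245 and 244 FPKM and Apoe, an apolipoprotein also made outside the liver, at 267, 221 and 225 FPKM. The retinol carrier Rbp4 was at 180.1 ± 2.68 FPKM and the heme scavenger Hpx at 122 ± 6.31 FPKM. Alb, which encodes albumin, the most abundant plasma protein of the adult, was at 57.8, 58.4 and 55.01 FPKM (ENSMUSG00000029368, chromosome 5, 90460897 to 90476602). This was higher than 96.1% of protein-coding genes, and Gc was above it in every library. Ttr, the carrier of thyroxine, was at 88.1, 89.00 and 85.96 FPKM, and Apob, the scaffold of very low density lipoprotein, at 44.8, 49.5 and 49.00 FPKM. Against these, Apoa1, the main protein of high density lipoprotein, was at 4.41, 2.43 and 2.53 FPKM, and the fibrinogen chains Fgb and Fga at 3.51 ± 0.303 and 2.59 ± 0.0988 FPKM. Apoa2 was at 0.883 ± 0.373 FPKM and Apom at 0.442 ± 0.228 FPKM. Apoc3, which slows the clearance of triglycerides, was at 0, 0.247 and 0.0964 FPKM from 6 fragments. Apoa4 and Apoc2 had no fragment, which allows up to 0.0309 and 0.06899 FPKM. The alpha-1-antitrypsin genes Serpina1a to Serpina1e are near-identical copies of each other. Serpina1b and Serpina1a were at 7.01 ± 1.05 and 6.49 ± 0.432 FPKM and Serpina1c at 0.653 ± 0.454 FPKM, and the division between them is uncertain.

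The 4 plasma protein promoters below are shown because all are poor in CG dinucleotides although their genes differ in level by more than 100-fold between Gc and Fga. They are the last 150 bases before the annotated start, from RefSeq on GRCm38.p6, 5′ to 3′ on the gene's strand, with each CG dinucleotide in capitals. Alb lies on the plus strand at chr5:90460720-90460869, Gc on the minus strand at chr5:89457899-89458048, Fga on the plus strand at chr3:83026003-83026152 and Fgb on the minus strand at chr3:83049864-83050013.
Alb: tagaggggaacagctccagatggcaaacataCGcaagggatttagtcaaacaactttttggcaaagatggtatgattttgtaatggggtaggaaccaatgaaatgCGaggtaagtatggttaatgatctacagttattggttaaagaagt
Gc: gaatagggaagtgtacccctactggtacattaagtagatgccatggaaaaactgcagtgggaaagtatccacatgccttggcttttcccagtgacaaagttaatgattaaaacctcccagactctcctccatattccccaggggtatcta
Fga: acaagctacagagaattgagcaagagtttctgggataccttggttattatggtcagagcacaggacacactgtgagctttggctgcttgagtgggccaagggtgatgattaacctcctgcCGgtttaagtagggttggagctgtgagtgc
Fgb: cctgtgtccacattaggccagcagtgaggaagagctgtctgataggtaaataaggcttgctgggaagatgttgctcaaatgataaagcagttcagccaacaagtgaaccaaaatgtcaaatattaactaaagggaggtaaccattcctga
These 150 bases held 2 CG dinucleotides in Alb, 1 in Fga and none in Gc or Fgb. Windows of 300 bases (250 before to 50 after a start) could be matched for 37 of the 45 plasma protein genes and for 16904 of 22016 protein-coding symbols (76.8%). The CpG ratio of a window is the number of CG dinucleotides over the number that its C and G content would give, and the highest was taken for a gene with several windows. It was 0.6 or more in 3 of the 37 plasma protein genes (8.11%) and in 8851 of the 16904 (52.4%). The median ratio was 0.228 and 0.629, respectively. By level, 3 of 21 plasma protein genes at 1 FPKM or more had a ratio of 0.6 or more, and 0 of 16 under it. Low shares were not particular to this list, with 0 of 10 neutrophil markers and 4 of 21 conjugation enzymes. Other lists were high, such as DNA replication with 28 of 34.

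Coagulation and complement genes were lower as a list, with 10 of 31 at 1 FPKM or more and a median of 0.202 FPKM. The highest members were complement genes and anticoagulants. C3, the central complement component, was at 319, 316 and 321 FPKM and Cfi, the protease that inactivates it, at 107, 109.8 and 111 FPKM. Proc and Pros1, the anticoagulant protein C and its cofactor, were at 27.95 ± 1.23 and 13.2 ± 1.09 FPKM, and C4b was at 9.47 ± 0.0913 FPKM. The clotting factors of this list were under 1 FPKM. F2, which encodes prothrombin, was at 0.166, 0.396 and 0.0745 FPKM and F11 at 0.583 ± 0.247 FPKM. F5, F9, F10 and F7 lay between 0.0105 and 0.0642 FPKM, from 1 to 25 fragments in all. The tissue factor gene F3, which starts clotting and was counted in the YAP and TEAD list, was at 24.2 ± 0.446 FPKM.

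The transcription factors of the liver had the largest share at 1 FPKM or more of the identity lists, 28 of 34, with a median of 7.31 FPKM. Cebpb, a C/EBP factor of the acute phase and of growth, was highest at 181, 140.4 and 151 FPKM, followed by Hhex, a homeobox factor of the liver bud, at 123, 121 and 120.3 FPKM. Atf5 was at 80.7 ± 10.2 FPKM and Xbp1, which drives secretory capacity, at 56.3 ± 1.87 FPKM. Hnf4a, the central factor of the hepatocyte network, was at 47.7, 46.4 and 45.9 FPKM (ENSMUSG00000017950, chromosome 2, 163506808 to 163572910). Of the list, 6 members lay under 1 FPKM. The xenobiotic receptor Nr1i2 (PXR) was at 0.965 ± 0.275 FPKM, just under it. Creb3l3 was at 0.319 ± 0.1201 FPKM, Nr0b2 (SHP) at 0.0686 ± 0.0368 FPKM, Nr1i3 (CAR) at 0.0177 ± 0.0306 FPKM and Hnf4g at 0.0148 ± 0.0257 FPKM. Tbx3 had no fragment, which allows up to 0.00847 FPKM.

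Drug and steroid metabolism was represented by few genes. Among phase 1 enzymes the aldehyde dehydrogenases Aldh2 and Aldh1a1 were at 57.8 ± 3.05 and 46.6 ± 1.68 FPKM and Por, the reductase that feeds electrons to all microsomal P450s, at 27.8 ± 0.517 FPKM. The highest P450 was Cyp51, a step of cholesterol synthesis, at 22.8 ± 0.789 FPKM, followed by Cyp39a1 at 14.97 ± 0.407 FPKM. The P450s that define the adult liver were near 0. Cyp2e1, which oxidises ethanol, was at 0.0271, 0.116 and 0.159 FPKM from 12 fragments, and Cyp3a11, a main drug-metabolising form, at 0.172, 0.0246 and 0 FPKM from 17 fragments. Cyp1b1 was at 0.999 ± 0.0464 FPKM, Cyp1a2 at 0.217 ± 0.108 FPKM and Cyp2a5 at 0.07797 ± 0.0676 FPKM. Cyp2c29 and Cyp2c37 had 7 fragments and 1 fragment, and Cyp2b10 had none (up to 0.0266 FPKM). Of 42 phase 1 genes, 25 lay under 0.1 FPKM and 8 had no fragment.

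Conjugation enzymes were present in part, 14 of 25 at 1 FPKM or more. The highest were mostly glutathione transferases. Gstp1 was at 200.2 ± 8.84 FPKM and Gstm1 at 119 ± 1.38 FPKM. Gsta3 followed at 80.6 ± 2.95 FPKM and Mgst1 at 67.2 ± 1.25 FPKM. Among the sulfotransferases and glucuronosyltransferases, Sult1a1 was at 8.09 ± 0.396 FPKM, Ugt2b34 at 2.36 ± 0.157 FPKM and Ugt2b36 at 2.19 ± 0.568 FPKM. Sult1d1 was at 0.512 ± 0.0681 FPKM, Sult1b1 at 0.305 ± 0.07595 FPKM and Ugt2b5 at 0.291 ± 0.172 FPKM. Ugt1a1, which conjugates bilirubin and shares exons with its neighbours, was at 0.0518 ± 0.0464 FPKM. It held 0.823% of the fragments of a family with 8 near-identical copies, so its own level is uncertain. Ugt2a3 and Ugt2b1 had 2 fragments each.

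Membrane transporters of the hepatocyte had a median of 0.02098 FPKM. The exporters Abcc4, Abcc3 and Abcc2 were highest, at 60.7 ± 1.07, 32.8 ± 0.542 and 26.1 ± 0.432 FPKM. Abcc2 is the canalicular exporter of conjugated bilirubin, and Abcc3 and Abcc4 export to the blood. Tfr2 and Ghr, receptors for transferrin and growth hormone, were at 15.4 ± 0.858 and 10.2 ± 0.914 FPKM. The uptake carriers were at or near 0. Slc10a1, which takes up bile acids, and Slco1a1 had 2 fragments each. Slco1a4, Slco1b2 and Slco2b1 had none. Asgr1, the asialoglycoprotein receptor of hepatocytes, was at 0.0368, 0 and 0 FPKM, which is 1 fragment in replicate 1.

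Zonation genes showed no full set from either side of the lobule. Hepatocytes near the central vein carry Glul and Cyp2e1, those near the portal tract the urea cycle and glucose release. On the central vein side 5 of 13 genes reached 1 FPKM, led by the ornithine aminotransferase Oat at 63.4 ± 1.57 FPKM and glutamine synthetase Glul at 55.5 ± 0.621 FPKM. Lect2 was at 13.9 ± 1.003 FPKM, and Znrf3 and Rnf43, feedback inhibitors of WNT signalling, at 8.04 ± 0.564 and 7.53 ± 0.0877 FPKM. Axin2, another WNT target, was at 0.9098 ± 0.132 FPKM, Slc1a2 at 0.804 ± 0.0937 FPKM, Gulo at 0.124 ± 0.0182 FPKM and Lgr5 at 0.0737 ± 0.0359 FPKM, and Rhbg had no fragment (up to 0.02896 FPKM). On the portal side 4 of 13 reached it. Cdh1, which encodes E-cadherin and is also a general epithelial gene, was at 118 ± 1.77 FPKM, the protease Ctsc at 20.9 ± 0.619 FPKM, Ass1 of the urea cycle at 3.06 ± 0.299 FPKM and Gls2 at 2.49 ± 0.427 FPKM. Hal was at 0.431 ± 0.111 FPKM, Sds at 0.0816 ± 0.0793 FPKM and Cyp2f2 at 0.03696 ± 0.0448 FPKM.

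The 23 hepatocyte markers were divided. Of these, 14 reached 1 FPKM, 5 reached 10 FPKM, and 4 lay under 0.1 FPKM. Over all protein-coding genes, 45.6% reached 1 FPKM and 22.2% reached 10 FPKM, so the marker share at 10 FPKM was no larger. Ttr, Alb, Trf, Apob and Hnf4a formed the upper group, from 46.6 to 87.7 FPKM. The fetuin Ahsg was at 2.93 ± 0.2902 FPKM. The lowest 9 were Apoa2, Tat, Cps1, Apoc3, Cyp2e1, Cyp3a11, Arg1, G6pc and Asgr1.

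**Figure D2:**
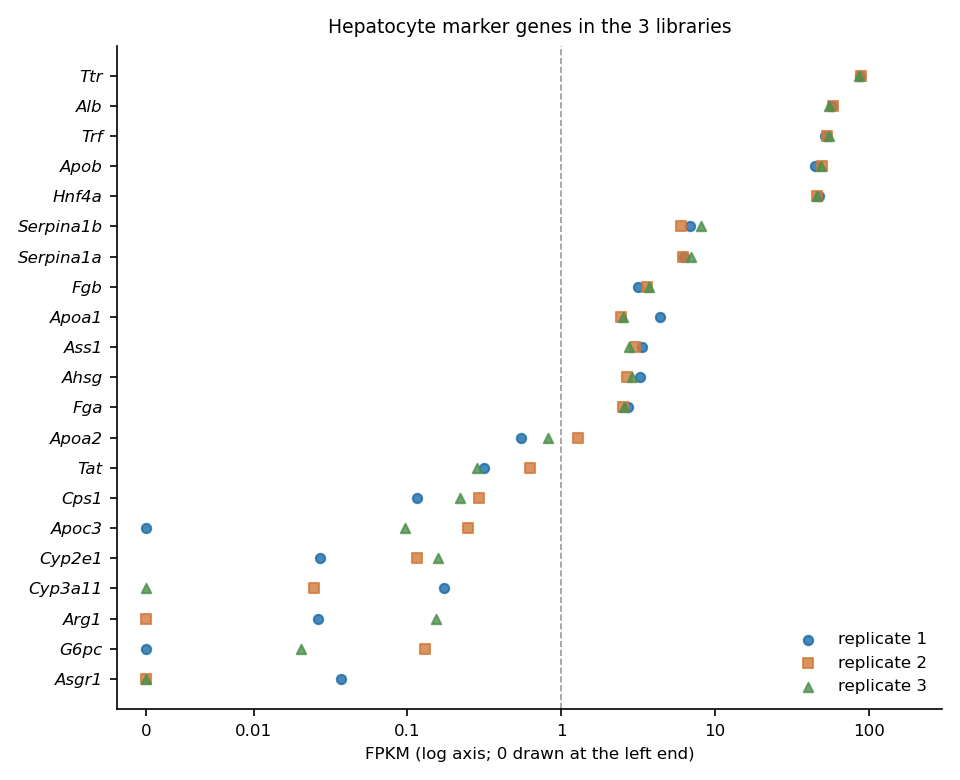
FPKM of 21 of the 23 hepatocyte marker genes in each of the 3 libraries, on a log axis with 0 at the left end and the dashed line at 1 FPKM. From Ttr to Fga the 3 symbols lie close together and above 1 FPKM, and from Apoc3 down at least 1 library lies near or at 0 for most genes.

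Among differentiation genes, those of biliary, epithelial and mesenchymal cells were largely present and those of fetal liver largely not. Of 136 genes in the 6 lists, 87 (64.0%) reached 1 FPKM, against 45.6% of all protein-coding genes. Fetal liver and oncofetal genes were the exception, with 6 of 20. Peg3, an imprinted zinc finger gene, was at 146 ± 6.15 FPKM, and the chromatin proteins Hmga1 and Hmga2 at 87.6 ± 9.53 and 32.7 ± 0.942 FPKM. Igf2bp2 and Igf2bp1, RNA-binding proteins, were at 14.1 ± 0.669 and 5.84 ± 0.0761 FPKM. Afp, the fetal counterpart of albumin, was at 0.695, 0.689 and 0.726 FPKM, and the imprinted RNA H19 at 0.359 ± 0.0603 FPKM. Igf2, Dlk1, Gpc3 and Lin28a, classical genes of fetal liver and hepatoblasts, had no fragment, which allows up to 0.009801, 0.00992, 0.0209 and 0.01404 FPKM.

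Biliary and progenitor genes were carried by 17 of 23 members, with a median of 7.48 FPKM. After Spp1, Cd24a, a surface sialoglycoprotein of progenitor cells, was at 248.9, 259 and 259 FPKM. Krt19, a keratin of bile ducts, was at 99.9, 95.1 and 95.7 FPKM and Sox9, a factor of ducts and progenitors, at 47.4, 41.3 and 47.00 FPKM. Sox4 was at 82.2 ± 3.34 FPKM, and Hes1 and Jag1, a target and a ligand of Notch, at 48.7 ± 2.28 and 43.97 ± 1.17 FPKM. Other defining genes of ducts and progenitors lay under 1 FPKM. Epcam was at 0.05402 ± 0.0225 FPKM from 6 fragments, Krt23 had 1 fragment, Muc1 was at 0.451 ± 0.0429 FPKM and Hey1 at 0.399 ± 0.0701 FPKM. Prom1 had none, which allows up to 0.00782 FPKM. The cholangiocyte marker list, which shares 9 genes with this one, among them Epcam, Krt19, Sox9, Muc1, Cftr, Spp1 and Krt7, had 8 of 12 at 1 FPKM or more and summed to 1269.8, 1249 and 1268 FPKM in the 3 libraries. Their part in the biliary levels was not tested. In bulk RNA, fewer cells of a type and less RNA per cell cannot be told apart.

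Epithelial and mesenchymal genes were present together. Of simple epithelial genes 13 of 21 reached 1 FPKM. Besides both keratins, the tight junction gene Cldn2 was at 195 ± 6.41 FPKM, Cdh1 at 118 ± 1.77 FPKM and the junctional adhesion gene F11r at 73.8 ± 1.68 FPKM. Several junction genes were low, with Ceacam1 at 0.694 ± 0.177 FPKM, Ocln at 0.248 ± 0.0611 FPKM, the connexins Gja1 and Gjb2 at 0.242 ± 0.0355 and 0.151 ± 0.0731 FPKM, and Cldn1 and Esrp1 at 2 fragments and 1 fragment. Cldn3 and Grhl2 had no fragment (up to 0.0446 and 0.00651 FPKM). Of mesenchymal transition genes 18 of 26 reached 1 FPKM, with a median of 8.92 FPKM. The galectin Lgals1 was at 521, 466 and 497 FPKM, the receptor tyrosine kinase Axl at 296, 298 and 297 FPKM and the intermediate filament Vim at 276, 280.2 and 272 FPKM. Itgb1, the beta-1 integrin, was at 271 ± 7.48 FPKM. Of the transition factors, Snai2 was at 10.3 ± 0.136 FPKM, Zeb1 at 7.497 ± 0.204 FPKM, Twist2 at 2.905 ± 0.2900 FPKM, Snai1 at 1.43 ± 0.261 FPKM, Zeb2 at 0.349 ± 0.0331 FPKM and Twist1 at 0.0377 ± 0.0385 FPKM. Genes of the contractile apparatus differed widely. Tpm1, a tropomyosin, was at 159.8 ± 0.8599 FPKM and the calponin Cnn1 at 2.22 ± 0.0435 FPKM, whereas Acta2 and Tpm2 had 2 fragments each and Tagln was at 0.122 ± 0.117 FPKM. S100a4 was at 0.201 ± 0.266 FPKM and the protease Mmp9 at 0.0328 ± 0.0357 FPKM, and Mmp2 had no fragment (up to 0.0166 FPKM). The list of stellate cell and fibroblast markers had 0 of 15 genes at 1 FPKM or more and summed to 0.403, 0.212 and 0.416 FPKM, with Pdgfrb, Lrat, Col1a2, Col3a1, Dcn and Lum without a fragment. The markers of liver mesenchymal cells were thus at or near 0 in the libraries that gave these levels.

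The list for YAP and TEAD, growth regulators active in spread, growing cells, was the most complete of these. Of its genes 17 of 18 reached 1 FPKM, with a median of 24.1 FPKM. It holds genes of the regulators themselves beside their targets, so this is not a count of targets alone. Ctgf was at 500.2, 479.6 and 495 FPKM and Cyr61 at 273, 274 and 278 FPKM, both secreted matricellular proteins. Ajuba and Amotl2, which act on the pathway itself, were at 74.5 ± 3.32 and 62.02 ± 1.12 FPKM. Dlc1 was the only member under 1 FPKM, at 0.161 ± 0.0358 FPKM. Matrix genes were divided, with 17 of 29 at 1 FPKM or more. The protease inhibitors Timp2 and Timp1 were at 72.5 ± 0.3399 and 72.00 ± 4.900 FPKM, and the urokinase receptor Plaur at 69.8 ± 0.396 FPKM. The basement membrane collagen Col18a1 was at 55.2 ± 2.34 FPKM. Collagen genes of connective tissue were low, with Col1a1 at 0.199 ± 0.116 FPKM, Col6a1 at 0.1797 ± 0.157 FPKM and Col5a1 at 0.0192 ± 0.0333 FPKM. Col1a2, Col3a1 and the laminin chain Lama3 had no fragment, which allows up to 0.00451, 0.00571 and 0.00522 FPKM.

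The 4 proliferation lists, which also hold cell cycle inhibitors and p53 targets, were expressed almost without exception. Of their 127 genes, 123 (96.9%) reached 1 FPKM and 74 (58.3%) reached 10 FPKM, against 45.6% and 22.2% of all protein-coding genes. That count is therefore not a measure of proliferation alone. None of the 127 was at 0. All 41 DNA replication genes were at 1 FPKM or more, with medians of 12.8, 13.2 and 12.6 FPKM in replicates 1 to 3. Pcna, the sliding clamp of DNA polymerases, was at 71.6, 67.8 and 74.8 FPKM. Mcm6, Mcm3 and Mcm7, subunits of the replicative helicase, were at 69.7 ± 1.14, 55.7 ± 1.15 and 54.5 ± 1.06 FPKM, and Rrm2, the regulated subunit of ribonucleotide reductase, at 42.2 ± 2.24 FPKM. All 40 mitosis genes were at 1 FPKM or more as well, with medians of 13.8, 13.5 and 13.7 FPKM. Incenp, of the chromosomal passenger complex, was at 34.1 ± 1.11 FPKM, cyclin Ccnb2 at 33.9 ± 0.759 FPKM and topoisomerase Top2a at 32.8 ± 1.804 FPKM. Ube2c and Foxm1, a ubiquitin-conjugating enzyme of mitotic exit and the factor that drives mitotic genes, were at 29.9 ± 1.44 and 24.4 ± 0.373 FPKM. The mitosis list ranged from 3.24 FPKM for Cenpf to 34.1 FPKM for Incenp.

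Genes of the G1 phase were dominated by 3 members. The cyclin Ccnd1 was at 247, 247 and 244 FPKM, its kinase Cdk4 at 119.9, 116 and 119 FPKM and the growth-promoting transcription factor Myc at 94.4, 97.4 and 95.8 FPKM. Cell cycle inhibitors stood beside them, with Cdkn1a (p21) at 49.6 ± 0.255 FPKM and Cdkn1b (p27) at 31.5 ± 0.996 FPKM. Cdkn2a, the locus of p16 and ARF, which stays silent in most normal young cells, was at 19.2 ± 1.44 FPKM, and its neighbour Cdkn2b at 16.7 ± 0.204 FPKM. The 4 members under 1 FPKM were E2f2 (0.521 ± 0.107), Cdkn1c (0.432 ± 0.121), Mycn (0.3002 ± 0.08600) and Mycl (0.195 ± 0.0617). Trp53 and its targets were all at 1 FPKM or more, 20 of 20, with a median of 25.7 FPKM. Ccng1 was at 135 ± 5.05 FPKM, the apoptosis gene Bax at 106 ± 7.57 FPKM and Trp53 itself at 80.5, 77.1 and 79.2 FPKM. Phlda3 and Plk2 followed at 68.2 ± 3.75 and 64.8 ± 0.602 FPKM.

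Metabolic lists differed widely in how many members were present. Of 371 genes, 255 (68.7%) reached 1 FPKM, against 45.6% of all protein-coding genes, and 32 had no fragment. The share by list ran from 24 of 24 for the tricarboxylic acid cycle to 5 of 17 for bile acid synthesis.

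The serine synthesis pathway, which makes serine from the glycolytic intermediate 3-phosphoglycerate in the order Phgdh, Psat1, Psph, was present in full. Phgdh, the first enzyme (ENSMUSG00000053398, chromosome 3, 98313170 to 98339990), was at 207, 207 and 203 FPKM, higher than 99.2% of protein-coding genes. It has 8 near copies, but 98.3% of the fragments of the family were its own. Psat1 (ENSMUSG00000024640, chromosome 19, 15904678 to 15947337) was at 154, 147 and 156 FPKM and Psph (ENSMUSG00000029446, chromosome 5, 129765558 to 129787449) at 9.72, 9.76 and 8.03 FPKM. The last step was thus more than 10-fold lower than the first 2 in each library. Of the hydroxymethyltransferases that split serine into glycine and a one-carbon unit, the mitochondrial Shmt2 was at 47.1, 42.96 and 43.7 FPKM and the cytosolic Shmt1 at 28.5, 28.6 and 26.96 FPKM, lower in every library. Gldc, the glycine-cleaving enzyme that takes the carbon further, was at 98.3, 97.6 and 97.5 FPKM. Its partner Amt was at 0.978 ± 0.386 FPKM. Several other liver genes of serine, glycine and glyoxylate breakdown were under 1 FPKM. Sds, serine dehydratase, was at 0.0816 ± 0.0793 FPKM from 8 fragments, Glyctk at 0.534 ± 0.1203 FPKM and Hao1 at 0.0684 ± 0.118 FPKM. Agxt and Agxt2, aminotransferases of glyoxylate, had no fragment (up to 0.0331 and 0.0177 FPKM). In the list as a whole 12 of 22 genes reached 1 FPKM.

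Folate and methionine genes reached 1 FPKM in 20 of 27 members. Ahcy, which clears S-adenosylhomocysteine, was at 67.3 ± 1.13 FPKM and Mat2a, the methionine adenosyltransferase of growing cells, at 58.8 ± 0.255 FPKM. The mitochondrial folate enzyme Mthfd2 was at 37.4 ± 2.04 FPKM, Mtap, which recycles methionine from polyamine synthesis, at 32.1 ± 1.47 FPKM, and Mat2b at 27.1 ± 1.38 FPKM. The members under 1 FPKM are largely liver enzymes. Mat1a, the adult liver adenosyltransferase, was at 0.397 ± 0.0634 FPKM, Ftcd at 0.0645 ± 0.00776 FPKM and Bhmt2 at 2 fragments. Bhmt, which remethylates homocysteine with betaine, and the folate receptor Folr1 had none (up to 0.00974 and 0.0244 FPKM). Aldh1l2 was at 0.592 ± 0.139 FPKM. Mthfs was at 0.151 ± 0.0577 FPKM, but it held only 9.904% of the fragments that it and a near-identical copy took together.

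**Figure D3:**
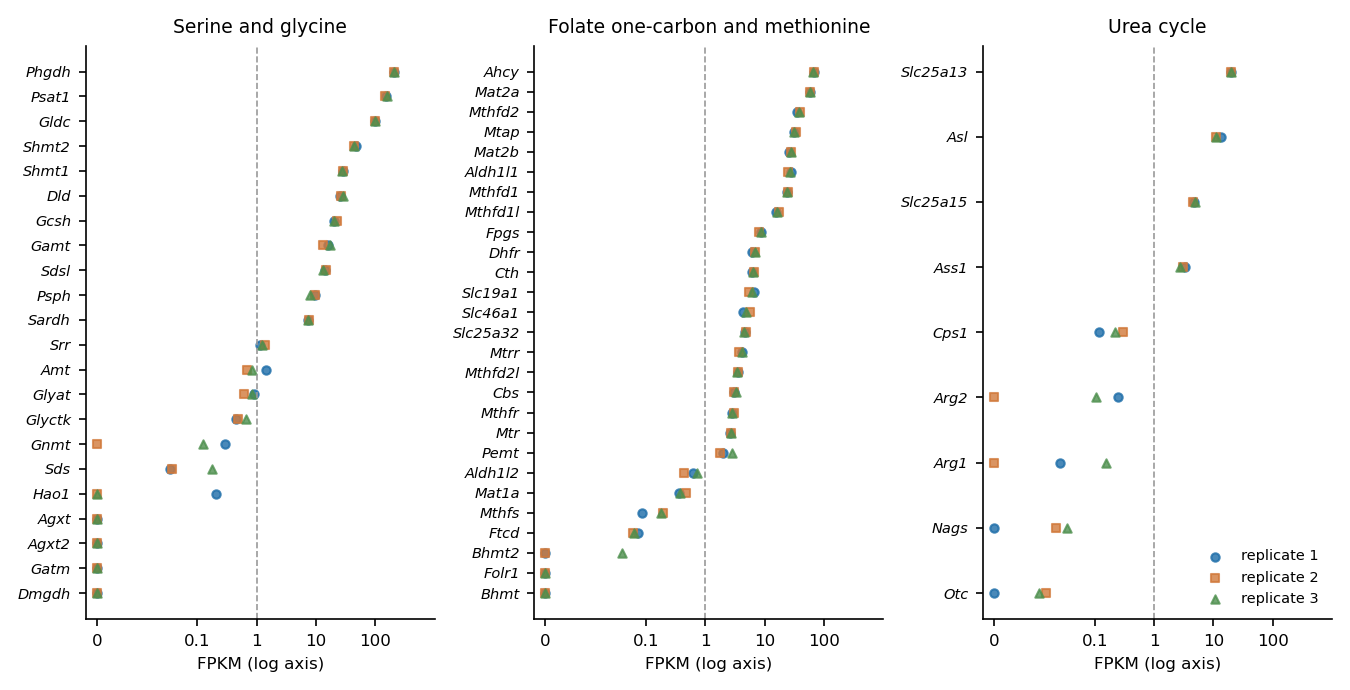
FPKM of the serine and glycine genes (left), the folate one-carbon and methionine genes (middle) and the urea cycle genes (right) in each of the 3 libraries, on log axes with 0 at the left end and the dashed line at 1 FPKM. Phgdh, Psat1 and Gldc lead the first panel near or above 100 FPKM, Ahcy and Mat2a lead the second, and Cps1, Arg2, Arg1, Nags and Otc lie under 1 FPKM in the third.

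At 1 FPKM or more were 18 of 36 genes of amino acid breakdown (50%) and 4 of 9 of the urea cycle (44.4%), shares near the 45.6% of all protein-coding genes. Glutamate dehydrogenase Glud1 was at 202 ± 2.28 FPKM, and Asns, which makes asparagine and responds to ATF4, at 63.1 ± 1.496 FPKM. The aspartate aminotransferases Got1 and Got2 were at 43.3 ± 0.789 and 33.4 ± 0.624 FPKM. The tyrosine and tryptophan routes of the liver were nearly absent from the reads, with Tat at 0.317, 0.625 and 0.285 FPKM, Tdo2 at 0.0809 ± 0.0497 FPKM, Hpd at 0.0854 ± 0.0281 FPKM and Hgd and Kmo at 2 fragments and 1 fragment. Ido2 had none (up to 0.0154 FPKM). Within the urea cycle, the aspartate-glutamate carrier Slc25a13 was at 19.7 ± 0.2001 FPKM, Asl at 11.8 ± 1.23 FPKM and the ornithine carrier Slc25a15 at 4.74 ± 0.184 FPKM. Ass1 was at 3.37, 3.04 and 2.77 FPKM, and held 65.6% of the fragments that it and a near-identical copy took together. Cps1, which fixes ammonia in the first step, was at 0.116, 0.293 and 0.2201 FPKM, from 62 fragments. Otc had 2 fragments, Nags 3, Arg1 8 and Arg2 9.

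Glycolysis was carried at high levels by the forms found in most tissues. Pkm, the pyruvate kinase of growing cells and muscle, was at 358, 331 and 340.1 FPKM. Pgam1 was at 266 ± 5.05 FPKM, Pgk1 at 247 ± 7.48 FPKM, Ldha, which makes lactate, at 222 ± 4.899 FPKM and the aldolase Aldoa at 221 ± 8.69 FPKM. Among the 11 of 36 members under 1 FPKM, Aldoc was at 0.914 ± 0.0972 FPKM, Pfkp at 0.743 ± 0.0645 FPKM, Pfkfb4 at 0.715 ± 0.0527 FPKM and Hkdc1 at 0.1005 ± 0.09098 FPKM. The hexokinase Hk3 had no fragment (up to 0.0152 FPKM). Gluconeogenesis, glycogen and fructose genes reached 1 FPKM in 12 of 23 members. Ugp2, Tkfc and Khk, of glycogen and fructose metabolism, led at 36.2 ± 0.613, 28.3 ± 0.882 and 16.4 ± 2.24 FPKM, followed by the mitochondrial Pck2 at 13.04 ± 0.498 FPKM and the widely expressed G6pc3 at 12.9 ± 0.518 FPKM. The enzymes through which the liver releases glucose were near 0. G6pc was at 0, 0.1298 and 0.0203 FPKM, Pck1 at 0.0342, 0.0731 and 0.0143 FPKM and Fbp1 at 0.103, 0 and 0.115 FPKM. The liver glycogen phosphorylase Pygl had 3 fragments and the synthase Gys2 none (up to 0.0211 FPKM).

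Genes of mitochondrial fuel use were present with few exceptions. All 24 genes of the tricarboxylic acid cycle reached 1 FPKM, with a median of 35.9 FPKM and a range from 5.15 FPKM for Pcx to 101 FPKM for Sdhd. Mdh1 and Mdh2, malate dehydrogenases of cytosol and mitochondria, were at 90.9 ± 1.196 and 87.2 ± 4.43 FPKM. In the pentose phosphate and NADPH list 13 of 15 reached it, led by malic enzyme Me1 at 166 ± 0.887 FPKM, H6pd at 116 ± 3.44 FPKM and Idh2 at 114 ± 2.38 FPKM. Me3 was at 0.128 ± 0.0304 FPKM and Nnt at 0.118 ± 0.0961 FPKM. Fatty acid oxidation reached 1 FPKM in 26 of 30 members. Acadl was at 117 ± 0.929 FPKM and Cpt1a, which admits fatty acids to mitochondria in liver, at 54.9, 55.5 and 56.5 FPKM. Bdh1 was at 0.614 ± 0.159 FPKM and the liver hormone Fgf21 at 3 fragments.

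Most lipid synthesis genes reached 1 FPKM, while lipid droplet genes of fat tissue and bile acid synthesis were low. Of the lipogenesis and storage genes 24 of 40 reached 1 FPKM. The desaturase Scd2 was at 272, 263 and 276 FPKM, the droplet protein Plin2 at 113 ± 3.37 FPKM and the desaturases Fads1 and Fads2 at 107 ± 3.100 and 105 ± 1.995 FPKM. Plin4 was at 0.0889 ± 0.0347 FPKM and Plin1 had no fragment (up to 0.0121 FPKM), and Acacb, Elovl2, Elovl3 and Scd3 had 1 to 5 fragments each. Of cholesterol genes 30 of 33 reached it, with Ebp at 83.5 ± 3.06 FPKM and the regulator Srebf2 at 56.2 ± 1.59 FPKM. Fdps was at 0.609 ± 0.0672 FPKM, but it held only 21.7% of the fragments of a family with 5 near-identical copies, so its own level is uncertain. Npc1l1 was at 0.0377 ± 0.0221 FPKM and Abcg1 had no fragment (up to 0.0138 FPKM). In bile acid synthesis the peroxisomal enzymes Hsd17b4 and Scp2, which also serve fatty acids, were at 34.9 ± 1.27 and 28.9 ± 1.18 FPKM, and Acox2 was at 11.1 ± 0.141 FPKM. Cyp7a1, the rate-limiting enzyme, had no fragment in any library, and neither had Cyp7b1 or Cyp8b1 (up to 0.0134, 0.0259 and 0.0288 FPKM). Akr1d1 was at 0.124 ± 0.0207 FPKM, Akr1c6 at 0.0567 ± 0.0508 FPKM and Hsd3b7 at 0.01998 ± 0.0212 FPKM.

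Iron, redox and transport genes completed the metabolic lists. After both ferritin genes, the metallothionein Mt1 was at 244 ± 11.3 FPKM, transferrin Trf at 53.5 ± 1.47 FPKM and the transferrin receptor Tfrc at 48.1 ± 2.41 FPKM. Mt2 was at 0.496 ± 0.3699 FPKM. Hamp, the liver hormone hepcidin that governs iron release, had 3 fragments, and Hamp2, Hfe2, Heph and Mt3 had none. Of NRF2 and glutathione genes 21 of 23 reached 1 FPKM. The peroxiredoxin Prdx1 was at 320.0 ± 8.15 FPKM, catalase Cat at 315 ± 9.98 FPKM, Gpx4, which reduces lipid peroxides, at 227 ± 5.23 FPKM, Gclc, the first enzyme of glutathione synthesis, at 204 ± 4.802 FPKM and Txn1 at 149 ± 13.5 FPKM. The 2 members under 1 FPKM are classical NRF2 targets, the quinone reductase Nqo1 at 0.264, 0.283 and 0.252 FPKM and the cystine carrier Slc7a11 at 0.593, 0.5402 and 0.587 FPKM. Of amino acid transporters 15 of 25 reached 1 FPKM, with the heavy chain Slc3a2 at 134 ± 3.44 FPKM, the taurine carrier Slc6a6 at 131 ± 1.601 FPKM and the system A carrier Slc38a2 at 54.1 ± 2.74 FPKM. Slc7a2 was at 0.346 ± 0.125 FPKM, Slc7a8 had 1 fragment, and Slc1a1 and Slc1a3 had none (up to 0.00909 and 0.00657 FPKM).

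Where a protein family has a liver form and a form found in other tissues, the liver form was usually the lower one. The ratio was taken within each library as log2((liver form + 0.1)/(other form + 0.1)), where 0.1 FPKM keeps values of 0 usable, understates ratios of low genes and sets the ratio where a form is at or near 0. Of 37 such pairs, the liver form was lower in all 3 libraries in 24, higher in all 3 in 10 and mixed in 3, with a median log2 ratio of -2.61. In 19 pairs the mean ratio lay at -2 or below, and in 9 at 2 or above. Mat1a against Mat2a stood at -6.90 ± 0.18, which is 148-fold lower on the FPKM means. Pygl against Pygb was at -6.64 ± 0.20, Pck1 against Pck2 at -6.57 ± 0.25 and G6pc against G6pc3 at -6.53 ± 0.69. The liver forms of these 3 pairs rest on 3 to 7 fragments. Gys2 and Bhmt had no fragment. Counted against its upper limit, Gys2 was at least 321-fold lower than Gys1 and Bhmt at least 275-fold lower than Mtr, which remethylates homocysteine in all tissues.

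Several other pairs of lipid, sugar and amino acid metabolism had the lower liver form. The ratio was -5.84 ± 0.21 for Acacb against Acaca and -5.82 ± 0.32 for Fabp1 against Fabp5. Pyruvate kinase Pklr against Pkm was at -3.74 ± 0.03, while Pklr itself was at 25.6 ± 1.28 FPKM. Scd1 against Scd2 was at -3.29 ± 0.09 and Soat2 against Soat1 at -2.67 ± 0.14. The carriers Slc7a2 against Slc7a1 and Slc38a3 against Slc38a2 were at -3.97 ± 0.37 and -3.80 ± 0.20. Smaller differences were seen for Slc2a2 against Slc2a1 (-1.27 ± 0.11) and Gpt against Gpt2 (-1.17 ± 0.13). Abcc2 against Abcc3 (-0.33 ± 0.04) and Pfkl against Pfkm (-0.18 ± 0.05) were nearly even. Among transcription factors Cebpa was 16.1-fold lower than Cebpb (-3.99 ± 0.15).

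The 10 pairs in the other direction also held metabolic enzymes and transcription factors, and Pfkl was in pairs of both directions. Cpt1a stood above Cpt1b (8.87 ± 0.46) and Cpt1c (4.89 ± 0.06), and Hnf4a above Hnf4g (8.69 ± 0.28). Fgfr4, the receptor through which intestinal FGF acts on hepatocytes, was at 32.2, 29.9 and 29.6 FPKM and at least 5384-fold above Fgfr1, which had no fragment. Krt8 stood above Krt7 (7.62 ± 0.03), Krt18 above Krt19 (3.50 ± 0.04), the connexin Gjb1 above Gja1 (4.91 ± 0.14), Aldh1l1 above Aldh1l2 (5.28 ± 0.26), Pfkl above Pfkp (4.03 ± 0.08) and Foxa3 above Foxa1 (1.57 ± 0.06). Arg1 with Arg2 (-0.38 ± 0.95), Fbp1 with Fbp2 (-0.16 ± 2.12) and Bcat2 with Bcat1 (0.20 ± 0.34) had 0 to 12 fragments per gene and gave no stable order.

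**Figure D4:**
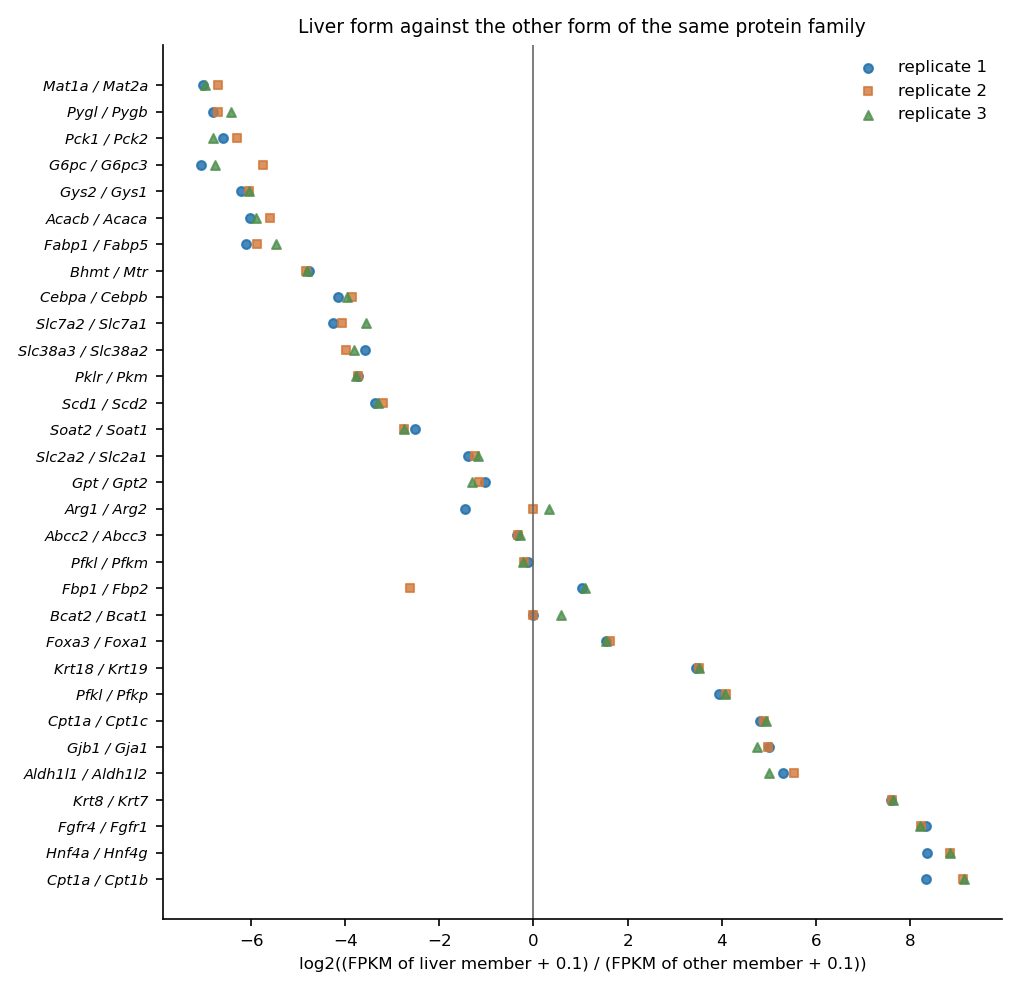
Log2 ratio of the liver form to the other form of the same protein family in each of the 3 libraries, with 0.1 FPKM added to both, for 31 of the 37 pairs, ordered by their mean. The vertical line marks equal levels, 18 of these pairs have all 3 symbols to the left of it, and the replicates spread most for Fbp1 and Arg1, whose pairs are near 0 in both forms.

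The inflammatory, stress and growth lists also had larger shares at 1 FPKM or more than the 45.6% of all protein-coding genes. Of chemokines and NF-kB targets 25 of 36 (69.4%) reached 1 FPKM. Besides Ccl2, the cytokine Mif was at 380.0 ± 15.4 FPKM, the NF-kB subunits Rela and Nfkb2 at 126 ± 2.997 and 76.8 ± 4.03 FPKM and the neutrophil-attracting chemokine Cxcl1 at 79.9, 79.1 and 75.5 FPKM. Its relative Cxcl5 was at 35.4, 37.9 and 38.2 FPKM. Interferon-linked chemokines were low, with Ccl5 at 0.928 ± 0.423 FPKM, Cxcl10 at 0.488 ± 0.131 FPKM and Cxcl9 at 0.382 ± 0.158 FPKM. Cx3cl1 and Csf3 were at 0.445 ± 0.105 and 0.162 ± 0.0527 FPKM, and Cxcl12 had no fragment (up to 0.00686 FPKM). The receptors for Cxcl1 and Cxcl5 were not seen in these cells, since Cxcr1 and Cxcr2 had no fragment (up to 0.0376 and 0.0184 FPKM).

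Acute phase genes spanned a wide range, with 20 of 31 (64.5%) at 1 FPKM or more. C3, Hpx and Cp, the copper carrier, led the list, with Cp at 86.1 ± 4.43 FPKM, Lbp, which binds bacterial lipopolysaccharide, at 78.2, 78.1 and 79.4 FPKM and the kinase Jak2 at 49.9 ± 2.198 FPKM. The serum amyloid genes Saa1, Saa2 and Saa4 and the orosomucoids Orm2 and Orm3 had 1 to 5 fragments each, and fibrinogen Fgg was at 0.716 ± 0.186 FPKM. Stress response genes reached 1 FPKM in 28 of 29 members (96.6%), with a median of 63.1 FPKM. The chaperone Hspa8 was at 582 ± 20.8 FPKM, the endoplasmic reticulum proteins Pdia3 and Calr at 327 ± 11.1 and 296 ± 8.903 FPKM and the mitochondrial Hspd1 at 294 ± 4.96 FPKM. The heat-inducible Hspa1a was at 0.484 ± 0.163 FPKM, the single member under 1 FPKM, and cannot be separated well from its near copy Hspa1b at 1.46 ± 0.317 FPKM.

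Immediate early genes, which growth factors and handling switch on within minutes, reached 1 FPKM in 25 of 26 members (96.2%). Junb was at 352, 312 and 335 FPKM, Ier3 at 245 ± 5.41 FPKM, Ier2 at 182 ± 11.3 FPKM and Egr1 at 180.0, 179 and 174 FPKM, while Egr3 was at 0.125 ± 0.0287 FPKM. Junb, Egr1, Cebpb, Peg3, Atf4, Klf6, Rela, Hhex, Myc and Fos were the 10 highest transcription factors of all lists, and Hmga1, Sox4, Atf5, Trp53 and Nfkb2 the next 5. Atf4, which drives amino acid synthesis genes, was at 138 ± 5.67 FPKM, Klf6 at 134 ± 2.76 FPKM and Fos at 93.4 ± 2.66 FPKM. Of the liver factors, Cebpb, Hhex and Atf5 were among these 15, and Hnf4a was not.

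Growth factor genes reached 1 FPKM in 26 of 41 members (63.4%). Igfbp4, a binding protein of insulin-like growth factors, was at 142 ± 3.26 FPKM, the receptor Tgfbr1 at 52.2 ± 2.57 FPKM and the ligands Pdgfb, Tgfa and Hbegf at 38.02 ± 0.237, 37.3 ± 0.753 and 35.4 ± 1.15 FPKM. Met and Egfr, receptors for hepatocyte growth factor and for Tgfa and Hbegf, were at 34.9 ± 1.96 and 28.3 ± 0.677 FPKM. Erbb3, Erbb4, Mst1r and Pdgfra had 1 to 8 fragments each and Fgfr1 and Pdgfrb none. Interferon-stimulated genes differed widely, with 14 of 26 (53.8%) at 1 FPKM or more, against 45.6% of all protein-coding genes. Their median was 1.19 FPKM. H2-D1 and H2-K1, class I heavy chains, were at 84.2 ± 3.25 and 62.2 ± 1.05 FPKM, Bst2 at 81.6 ± 3.91 FPKM and Irf1 at 11.7 ± 0.669 FPKM. Ifit3b was at 0.845 ± 0.184 FPKM, Ifit1 at 0.408 ± 0.0961 FPKM and Oas1a at 0.162 ± 0.0611 FPKM, and Mx1 and Rsad2 had 1 fragment each.

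Most markers of other cell types were at or near 0, and those of cholangiocytes mostly were not. Of 112 markers, 13 (11.6%) reached 1 FPKM, against 45.6% of all protein-coding genes, and 67 had no fragment. Of these 13, 8 are in the cholangiocyte list, which has 12 genes and is led by Spp1 at 1016 ± 5.26 FPKM. No lymphocyte, neutrophil, erythroid, acinar or islet marker reached 1 FPKM, and the highest sum of any of those lists in a library was 0.849 FPKM. In the endothelial list, Stab1 and Oit3 were just above 1 FPKM (1.12 ± 0.174 and 1.09 ± 0.155), Pecam1 and Stab2 had 4 and 9 fragments, and Cdh5, Kdr, Tek and Lyve1 had none. In the Kupffer cell list Cd14, a receptor for lipopolysaccharide that hepatocytes can make, was at 116, 117 and 113 FPKM. Cd68 was at 0.6902 ± 0.448 FPKM and Csf1r at 0.0443 ± 0.06596 FPKM, and Clec4f, Adgre1, Timd4 and Marco, which define these macrophages, had no fragment. Cd14 was the only one of the 15 at 1 FPKM or more, and the list summed to 117, 117 and 114 FPKM. The list for pancreatic cancer epithelium bears on the conflict between labels and design text. It had 4 of 17 genes at 1 FPKM or more and summed to 317, 313 and 301 FPKM. Msln, which encodes the surface protein mesothelin, was at 205, 204 and 193 FPKM. Krt19 and Krt7, at 96.9 and 4.26 ± 0.0988 FPKM, are shared with the bile duct list, and Gata6, at 7.13 ± 0.773 FPKM, with the liver factor list. Krt17, Tff1, Tff2, Agr2 and Cldn4 had no fragment, Muc1 and Lgals4 were at 0.451 ± 0.0429 and 0.512 ± 0.159 FPKM, and the pancreatic factors Ptf1a and Pdx1 had none either. The lists do not by themselves show which tissue the cells came from. In these libraries Hnf4a, Alb, Ttr and Gc were present beside them, from 46.6 FPKM for Hnf4a to 499 FPKM for Gc. Of the 23 hepatocyte markers, which do not include Gc, 14 reached 1 FPKM and 9 lay under it, where 45.6% of all protein-coding genes reached it.

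Common reference genes differed in how well they could be read. Hprt was at 204, 199 and 209 FPKM, Actb at 1099, 1155 and 1122 FPKM and Tbp, the TATA-binding protein, at 1.51, 1.704 and 1.76 FPKM. Gapdh, by contrast, was read at 1.97, 19.7 and 53.2 FPKM (ENSMUSG00000057666, chromosome 6, 125161715 to 125166467), which is a CV of 104%, where counting alone gives 2.34%. It was among the 5 protein-coding genes at 10 FPKM or more with the largest spread beyond counting, the others being Rpl30 (4.09, 3.05 and 24.8 FPKM), Sumo2 (18.3, 7.55 and 16.6 FPKM), Rps18 (22.4, 12.3 and 13.03 FPKM) and Sarnp (21.3, 12.4 and 12.9 FPKM). All but Sarnp have near-identical copies elsewhere in the genome, mostly processed pseudogenes, by a match of at least 95% over at least 200 bases and at least 50% of the shorter transcript. For Gapdh there were 77 such entries. They took 14948, 10780 and 15201 fragments in replicates 1 to 3, where Gapdh itself took 139, 1297 and 4500, so its own share was 0.921, 10.7 and 22.8%. Added together, gene and copies had a CV of 11.99%. Rpl30, with 12 copies, went from a CV of 115% alone to 8.697% with them, and Rps18, with 5, from 35.6% to 8.38%. For Sumo2 the sum still varied, at 24.3%. Ppia, chosen for this after its values were seen, was at 304, 403 and 219 FPKM and its pseudogene Gm10123 at 818, 224 and 1133 FPKM. Replicate 2 had the highest Ppia and the lowest Gm10123, replicate 3 the reverse, and the family had a CV of 7.28% where Ppia alone had 29.9%. For Gapdh, Rpl30, Rps18 and Ppia, gene and copies together had a lower CV between libraries than the gene alone. Gapdh, Rpl30 and Rps18 held only 12.7%, 11.1% and 13.9% of the fragments of their families, and Ppia 73.3%. In the first 3 the copies make up most of the sum. Its lower CV therefore cannot show whether gene and copies offset each other. Of 1300 genes with a transcript to search, 218 had such a copy, among them Ass1, Fdps, Mthfs, Serpina1a, Tuba1b and Tuba1c.

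**Figure D5:**
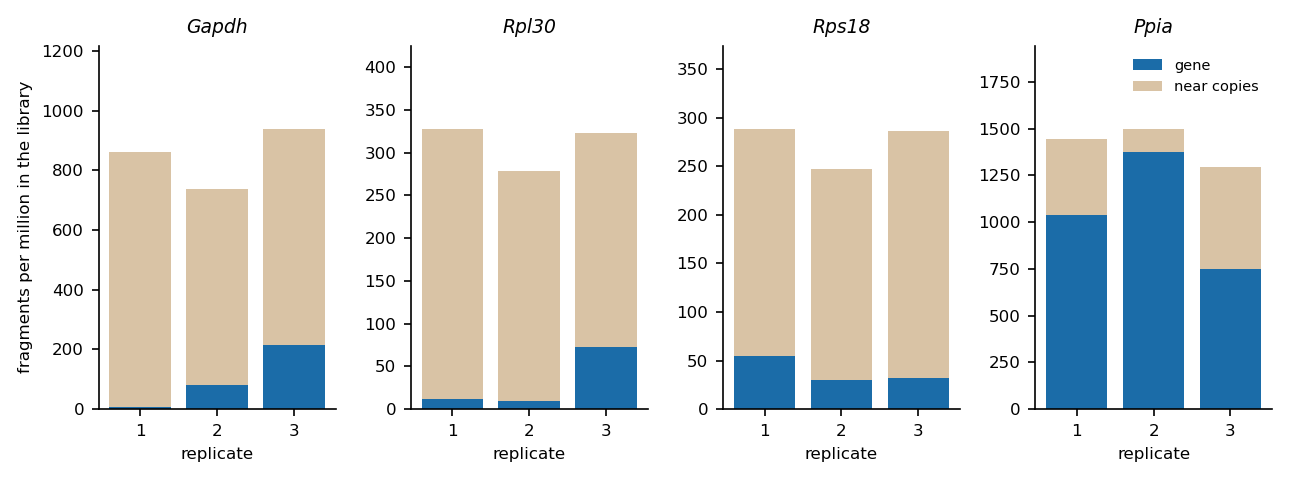
Fragments as CPM (per 1e6 fragments of the library) for Gapdh, Rpl30, Rps18 and Ppia (blue) with those of their near-identical copies stacked on top (tan), by replicate, from 0. The blue part changes several-fold between replicates for Gapdh and Rpl30, while the full bars of each gene differ far less.

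The highest noncoding entries were short RNAs, mitochondrial RNA and processed pseudogenes. Gm23935, a miRNA entry of 57 bases, was at 10963, 8315 and 8933 FPKM, and the mitochondrial tRNA mt-Tp, of 67 bases, at 902 ± 108 FPKM. The ribosomal RNA mt-Rnr2 was at 752 ± 55.1 FPKM. The other 7 were processed pseudogenes, namely Gm15772 (1845 FPKM), Rps2-ps13 (1533), Rpl34-ps1 (1162), Gm12191 (804), Gm13394 (735), Gm10123 (725) and Rpl17-ps10 (656). Gm13394 is one of the near copies of Gapdh, and it was read above Gapdh in every library. Division by so short a length raises the FPKM of such entries. Genes of 100 bases or shorter held 3.30% ± 0.423 of the summed FPKM but 0.0649% ± 0.00879 of fragments. Processed pseudogenes together held 6.63% ± 0.181 of the summed FPKM but 1.42% ± 0.0555 of fragments. Among long noncoding RNAs, Malat1 was at 14.05 ± 0.132 FPKM.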

How the data were processed

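RNA of the 3 libraries was extracted with an RNeasy kit and handled by Novogene's procedures, per the labels' protocols. The aligner was HISAT2 and the build is named GRCm38 and mm10, per the submitters' processing notes. Which program counted the fragments, on which annotation release and with or without strand is not given in the sources used here, so overlapping and antisense genes cannot be told apart. The authors deposited FPKM per gene with gene lengths for 54532 genes, of which 22046 are protein-coding. Gene coordinates are those of the deposited table, and 98.3% equal GENCODE M21.

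Multiplying FPKM by gene length gave whole multiples of 1 step per library for 100% of values, within 0.1 fragment, and these fragments give the depth and the counting error. Means, SDs, medians, counts at 1 FPKM or more and within-library log2 ratios (0.1 FPKM added) were computed with Python 3.11.15, pandas 2.3.3 and numpy 2.4.6, and the calculations were tested on simulated data. With 1 group of 3 libraries no test was run. Near-identical copies were found with BLAST 2.17.0 among transcripts, at 95% identity or more over at least 200 bases and at least 50% of the shorter transcript. Promoter sequences are from RefSeq on GRCm38.p6, matched by symbol.

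The lists and the rule for named genes were chosen with earlier results of these data known. Of 1119 listed genes 1117 were in the table, Ahsp and C5 were not matched by symbol, and 27 symbols in the table are written as dates. Named are the 30 highest nuclear protein-coding genes, the 15 highest listed transcription factors, the 3 to 5 highest members of each list, members under 1 FPKM (all where 8 or fewer, otherwise up to 6), the isozyme pairs, the 5 protein-coding genes at 10 FPKM or more most variable beyond counting error, the 10 highest noncoding genes, the lowest hepatocyte markers, and Phgdh, Psat1, Psph, Shmt1, Shmt2, Alb, Cxcr1 and Cxcr2. Some of these genes are counted in the lists but not reported here by name. Genes beyond these were chosen after their values were seen. Alternatives were leaving out each replicate, TPM, another scaling, other thresholds and another pseudocount.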

Additional observations from a re-analysis of the deposited data

How the results depend on the processing

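No paired analysis was possible because the profile holds 1 group and no test. At a threshold of 5 FPKM in place of 1, the count fell from 10050 to 7016 protein-coding genes, from 104 to 77 identity genes, from 87 to 72 differentiation genes, from 123 to 106 proliferation genes, from 255 to 213 metabolic genes and from 13 to 8 markers of other cell types. Only the last changed by more than 1.5 times. The 50 genes highest by FPKM held 27.0% of summed FPKM and 12.2% of recovered fragments. Ranked anew by fragments, the 50 highest held 14.3% of fragments. Among nuclear protein-coding genes only, the 50 highest held 20.1% of the FPKM of such genes. Leaving out each replicate in turn gave 10051 to 10070 protein-coding genes at 1 FPKM or more, 106 to 108 identity genes, 12 to 13 markers of other cell types, a median CV of 3.87% to 4.81%, and 24 isozyme pairs with the lower liver form each time. TPM, made by rescaling each library to the same sum, raised the number of protein-coding genes past the mark of 1 to 11023 and of identity genes to 126. A level near 1 FPKM, such as those of Nr1i2 and Axin2, therefore falls on either side of the mark by choice of unit. Depth limits the low end: a level of a few hundredths of an FPKM rests on a handful of fragments, and a gene without a fragment is bounded by its upper limit only.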

Other observations

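The protein genes of the mitochondrial genome, singled out after their values were seen, differed widely although they are read from the same genome. Of the 13, mt-Co1 was at 10184, 11232 and 10867 FPKM, mt-Nd1 at 5488 ± 338 FPKM and mt-Cytb at 3580.5 ± 215 FPKM. In contrast mt-Co2 was at 145, 151 and 150.3 FPKM, mt-Atp6 at 93.5 ± 12.6 FPKM, mt-Co3 at 66.05 ± 5.45 FPKM and mt-Nd3 at 8.72 ± 2.91 FPKM. Near-identical nuclear copies of these 4 genes held fragments too, and mt-Co2 held 62.02% of its family, mt-Atp6 53.3%, mt-Co3 55.8% and mt-Nd3 17.3%. The sum of mt-Co2 and its copies was 2656, 2669 and 3456 fragments in replicates 1 to 3, where mt-Co1 alone had 268722, 276883 and 343368. For mt-Atp8, at 2.92 ± 1.200 FPKM, no such copy was found. The gene has 204 bases and a match needed at least 200 within an annotated transcript, so the search could hardly find one. How fragments that match several places were counted is not given in the sources used here, and the part of the copies in these levels was not tested.

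Several protein-coding genes outside every list stood high. Tmem176b was at 495 ± 7.58 FPKM, Tm4sf4 at 467 ± 4.46 FPKM, Ctnnb1, which encodes beta-catenin, at 382 ± 8.42 FPKM and the selenium carrier Selenop at 355 ± 6.09 FPKM.

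Deviations from the mean of the libraries went slightly with gene length among genes at 10 FPKM or more. In replicate 1 the median deviation on the log2 scale was 0.03 for genes up to 1000 bases and -0.04 for those over 10000 bases. In replicate 2 it was -0.03 and 0.03.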
